A study of Rattus norvegicus with 3 samples.

Results

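Immediate early genes are switched on within minutes of a stimulus, without new protein synthesis, and their mRNAs are mostly short-lived. Many carry serum response elements, which hold a CArG box bound by serum response factor, or cAMP response elements in their promoters, and most encode transcription factors that start a second wave of gene expression. In the small intestine, feeding and growth factors are known inducers of several of them. The 6 genes described here are Jun and Fos, which pair to form the transcription factor AP-1, the zinc finger factors Egr1 and Klf6, Zfp36, whose product tristetraprolin binds AU-rich elements and speeds the decay of the mRNAs that carry them, and Ier2, a nuclear immediate early protein. They were chosen by gene symbol in the platform annotation of the array and make up 6 of the 4379 named genes, with 7 of the 6653 probes. Klf6 has 2 probes and each of the others has 1.

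The RNA came from male Sprague-Dawley rats aged 6 weeks and from 3 depths of the jejunal mucosa. Frozen blocks had been cut across the villi with a cryostat, and every 10 sections of 10 µm formed a fraction of 100 µm. The crypt sample was fraction 6 counted from the villus top, the middle villus sample fraction 4 and the top villus sample fraction 1. Every part had 1 sample, and the labels used here state neither how many animals stand behind it nor whether they had been fed, so no difference could be checked in replicates and none has a p-value. Each fraction holds all cell types present at its depth, so a difference in how many cells of a type it holds and a difference in RNA per cell cannot be told apart.

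Values are given on the log2 scale as deposited. A value in the lowest 25% of its column was counted as dim, which meant below 6.05 in the crypt, 4.15 in the middle villus and 5.15 at the villus top, and a difference that involves a dim value is a bound. A gene was called higher or lower at 2-fold, a log2 difference of 1. The only error scale is how far probes of 1 gene differ from each other in such a difference. Its SD was 0.91 when top villus was set against crypt, 0.90 when middle villus was set against crypt and 1.05 between top and middle villus. This SD leaves out the spread between animals and between arrays.

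The fractions matched their labels in the markers on the table. All 4 dividing-cell markers (Mki67, Cdk1, Pcna and Mcm6) were lower in top villus than in crypt. The sums of their linear values were 5550 in the crypt, 186 in the middle villus and 127 at the villus top. Cdk1, Mcm6 and Mki67 were dim in the middle villus and Cdk1, Mki67 and Pcna at the villus top. The sums of the villus parts are therefore not read as a further fall. Of 7 enterocyte markers 5 were higher in top villus than in crypt and Krt19 was lower. Their summed linear values were 30117 in the crypt, 130076 in the middle villus and 164924 at the villus top. Between middle and top villus only Epcam was past 2-fold, at 1.99, and the median of the 7 markers was -0.15.

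The top of the villus had more mRNA of 5 of the 6 genes than the crypt. Jun, Fos, Egr1, Klf6 and Zfp36 were higher there, against 23.9% of the 3932 genes compared, and Ier2 was lower, against 39.5% of those genes. The same 5 members were also past 4-fold, which 12.1% of genes were. The median log2 difference of the 6 members was 4.06, beside -0.39 for all genes compared.

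Jun, the AP-1 subunit that can bind DNA as a pair with itself or with Fos, had 6.75 in the crypt, 8.46 in the middle villus and 12.01 at the villus top. Its level was lowest in crypt and highest at the top, with the wider step in the upper part of the villus. Top villus was 38.4-fold higher than crypt, a log2 difference of 5.26. With bounds taken at their limit, 30 of the 3932 genes had a greater one, so that this count is a minimum. The lower step, from crypt to middle villus, measured 1.71 and the upper step, from middle to top villus, 3.56. The upper step was 3.40 times the SD between probes of a gene, while the lower one was 1.90 times that SD and so inside 2 SDs.

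Fos, which binds DNA only as a pair with a Jun protein, had 7.47 in the crypt, 9.68 in the middle villus and 11.15 at the villus top. It kept the same order of parts as Jun, but the wider of its steps was the lower one. Top villus was 12.8-fold higher than crypt, a log2 difference of 3.68, at 4.03 SDs. Middle villus was already 4.63-fold higher than crypt, a difference of 2.21 at 2.45 SDs. The upper step of 1.47 was inside 2 SDs, at 1.40. On the log2 scale Fos had covered 60.1% of its distance from crypt to top by the middle of the villus, and Jun 32.4%.

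Egr1, a zinc finger factor and a textbook target of serum response factor, had 5.60 in the crypt, 5.99 in the middle villus and 10.59 at the villus top. The crypt value was dim and the middle value stood just below the level that counts as dim in crypt, so no difference could be shown between these neighbours. In the deposited values nearly all of the distance lay in the upper step. There top villus was 24.3-fold higher than middle villus, a log2 difference of 4.60 at 4.39 SDs. At least 29 of the 3768 genes in that comparison had a greater difference, a count that takes bounds at their limit. Against crypt, top villus was at least 23.3-fold higher.

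Klf6, a Krüppel-like factor known for early induction after injury, was measured by 2 probes. Probe A_43_P14324 had 9.77 in the crypt, 11.67 in the middle villus and 14.51 at the villus top, and probe A_42_P677628 had 6.03 in the crypt, where it was just inside the dim range, 10.29 in the middle villus and 10.19 at the villus top. Both probes were higher in both villus parts than in crypt, with deposited top minus crypt differences of 4.74 and 4.16. They differed in where the change lay. The upper step was 2.84 for the first probe and -0.10 for the second. As the mean of its probes, Klf6 was at least 21.7-fold higher in top villus than in crypt and at least 8.40-fold higher in middle villus than in crypt, and its upper step of 1.37 rested on 1 of the probes.

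Zfp36 had 7.71 in the crypt, 9.10 in the middle villus and 11.09 at the villus top. It followed the order of Jun and Fos, with 41% of the distance covered by the middle of the villus. Top villus was 10.4-fold higher than crypt, a log2 difference of 3.38 at 3.70 SDs. Both of its single steps, 1.39 and 1.997, were past 2-fold but inside 2 SDs, at 1.54 and 1.91.

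Ier2 departed from the other 5. It had 8.85 in the crypt, 5.94 in the middle villus and 7.28 at the villus top, all above the dim levels, so that crypt was the highest part and middle villus the lowest. Middle villus was 7.52-fold lower than crypt, a log2 difference of -2.91 at 3.23 SDs. When the lowest 40% of a column counted as dim, that difference became a bound of -1.99. Top villus lay between them, 2.97-fold lower than crypt and 2.54-fold higher than middle villus, with differences of -1.57 and 1.34 that were both inside 2 SDs, at 1.72 and 1.28.

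**Figure D1:**
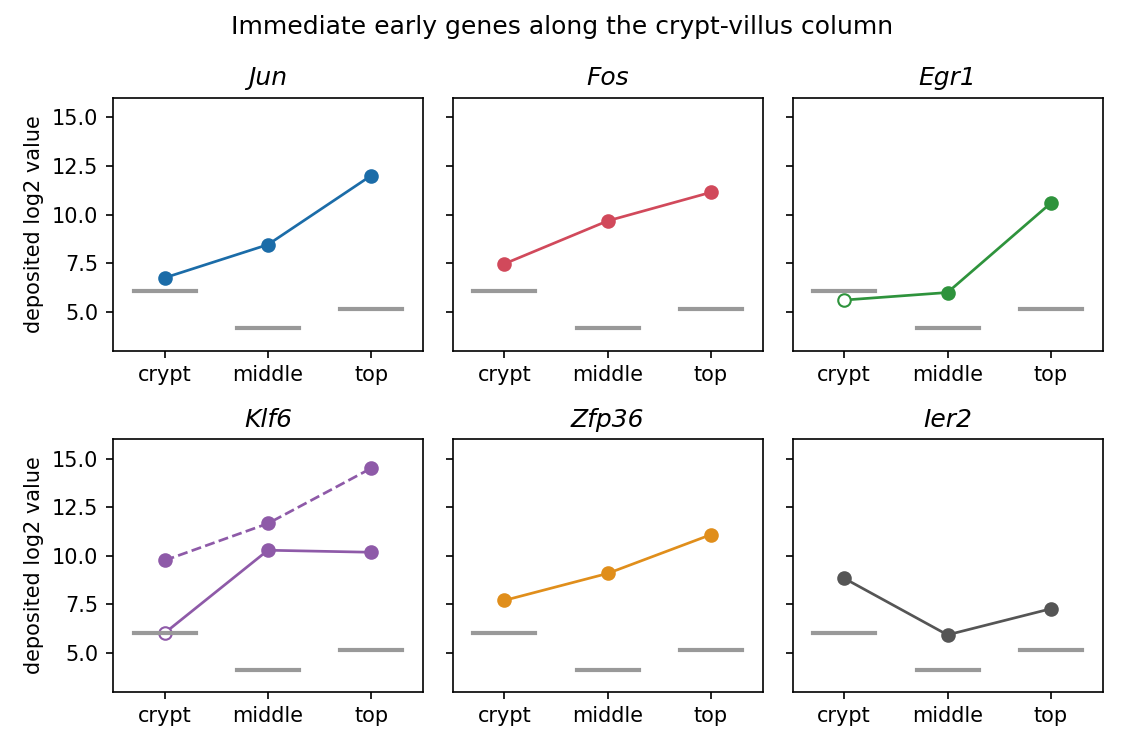
Deposited log2 values (vertical axis) of the 6 genes in crypt, middle villus and top villus, 1 sample each. Points joined by a line are 1 probe (Klf6 has 2, with probe A_43_P14324 dashed), open points are dim values and grey bars mark the dim level of each column. Jun, Fos and Zfp36 climb at both steps, Egr1 stands at 10.59 in top villus against 5.99 in middle villus, the Klf6 probes part above the middle villus, and Ier2 is lowest in middle villus at 5.94.

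Set against crypt, middle villus had 4 members higher (Jun, Fos, Klf6 and Zfp36), against 19.1% of 3825 genes, and 1 lower (Ier2), against 29.5%. The median over the members was 1.55, beside -0.08 for all genes. Top villus against middle villus had all 6 members higher, against 29.5% of 3768 genes, and none lower, against 27.4%, with a median of 1.73 beside 0 for all genes. Of these 6 upper steps those of Jun and Egr1 stood outside 2 SDs between probes, with Klf6 taken as the mean of its probes. The comparisons share samples, so their counts are not separate evidence. Jun, Fos, Klf6 and Zfp36 were higher at both steps, as were 5.08% of the 3542 genes compared at both. Egr1 was counted as within 2-fold at the lower step and was higher at the upper one, a pattern of 10.2% of genes. Its lower step is a bound, which does not show whether it passed 2-fold. Ier2 was lower and then higher, a pattern of 9.68%.

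**Figure D2:**
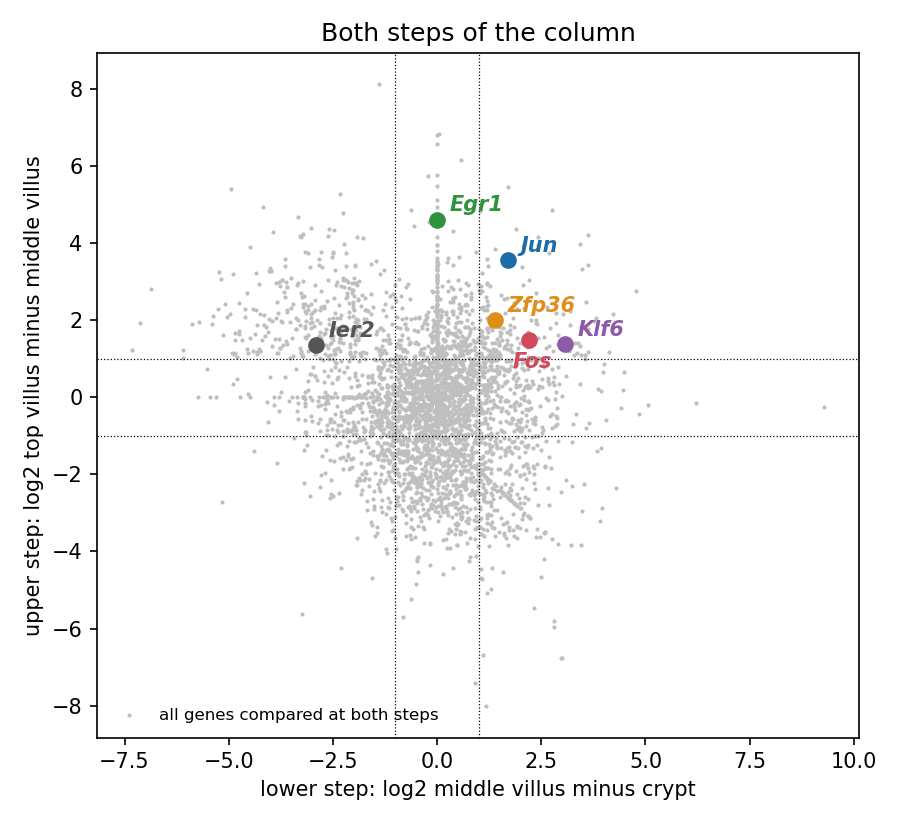
Log2 difference at the lower step (middle villus minus crypt, horizontal) against the upper step (top villus minus middle villus, vertical). Grey points are the 3542 genes compared at both steps, coloured points the 6 members, and dotted lines mark 2-fold. Genes on the vertical line at 0 include bounds that were not allowed to pass 0, as for Egr1, and 4 members lie in the upper right field with 5.08% of genes.

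Likeness among profiles was measured as the root mean square difference of log2 values over the 3 parts, each profile centred on its own mean. The distances of Egr1 use its dim crypt value as deposited, and those of Klf6 use the mean of its probes, 1 of them dim in crypt, so both depend on values in the dim range. Among the members Fos was 0.34 from Zfp36 and 0.39 from Klf6, and Jun was 0.90 from Klf6, but 0.30 from its brighter probe alone. Ier2 was between 2.20 and 2.85 away from each of the others. Among up to 2696 other genes measured in all 3 parts, the 3 nearest to Zfp36 were Tiparp at 0.012, Nr3c2 at 0.020 and Lama5 at 0.038. Nearest to Fos were RT1-Ba at 0.08, Abtb2 at 0.10 and Serac1 at 0.10, and nearest to Klf6 were S100a10 at 0.07, Cyp2j4 at 0.07 and Lpgat1l1 at 0.12. The nearest genes to Jun were farther away, with Lipa at 0.13, Max at 0.27 and that Klf6 probe, and to Egr1 S100a6 at 0.19, Itgb6 at 0.29 and Pmp22 at 0.30. Nearest to Ier2 were Igf1 at 0.03, Rps12 at 0.06 and Matr3 at 0.06. With 3 points per profile and 1 sample per part, these distances describe the 3 arrays only.

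Promoter sequences of 4 members, from 250 bases before the gene's start to 50 bases after it, were matched in the RefSeq promoter table of rat build GRCr8. These 4 are shown because no promoter of Jun or Fos was in that table. Of the 4 genes, 3 were higher in top villus than in crypt and Ier2 was lower. Capitals mark matches on either strand to the CArG box, to the AP-1 motif TGANTCA, to the full cAMP response element TGACGTCA and to the EGR-type motifs GCGTGGGCG and GCGGGGGCG. The Egr1 window is chr18:26736828-26737127 on the plus strand, that of Klf6 chr17:69458429-69458728 on the minus strand, that of Zfp36 chr1:92799059-92799358 on the minus strand and that of Ier2 chr19:40399123-40399422 on the plus strand, and each is printed 5′ to 3′ along its gene.
Egr1: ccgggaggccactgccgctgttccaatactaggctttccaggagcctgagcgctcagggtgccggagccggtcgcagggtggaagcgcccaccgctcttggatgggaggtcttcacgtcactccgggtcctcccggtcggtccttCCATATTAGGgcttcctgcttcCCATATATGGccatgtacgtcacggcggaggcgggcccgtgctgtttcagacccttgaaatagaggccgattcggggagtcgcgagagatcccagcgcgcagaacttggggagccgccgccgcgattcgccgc
Klf6: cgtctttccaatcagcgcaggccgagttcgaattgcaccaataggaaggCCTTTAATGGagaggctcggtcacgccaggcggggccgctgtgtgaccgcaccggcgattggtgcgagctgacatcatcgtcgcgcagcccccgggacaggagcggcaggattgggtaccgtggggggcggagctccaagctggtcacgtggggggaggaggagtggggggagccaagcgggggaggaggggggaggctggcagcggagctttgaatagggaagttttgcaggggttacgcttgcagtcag
Zfp36: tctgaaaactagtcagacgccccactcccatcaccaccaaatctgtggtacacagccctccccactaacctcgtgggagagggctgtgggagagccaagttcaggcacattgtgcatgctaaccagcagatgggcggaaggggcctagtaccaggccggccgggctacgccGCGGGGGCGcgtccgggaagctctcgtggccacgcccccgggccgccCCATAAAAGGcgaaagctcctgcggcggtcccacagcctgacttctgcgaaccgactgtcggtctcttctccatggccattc
Ier2: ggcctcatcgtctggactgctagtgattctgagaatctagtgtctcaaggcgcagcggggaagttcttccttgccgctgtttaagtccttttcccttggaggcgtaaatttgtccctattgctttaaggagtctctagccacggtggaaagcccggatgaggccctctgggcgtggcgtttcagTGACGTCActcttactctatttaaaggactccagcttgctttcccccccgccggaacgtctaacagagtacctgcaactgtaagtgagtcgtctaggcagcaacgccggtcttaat

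A CArG box was found in the windows of Egr1, Klf6 and Zfp36, 3 of the 4 promoters, beside 1.64% of the 33469 promoters of the table and 1.54% of the 3895 promoters of genes on the array. Egr1 held 2 of them, CCATATTAGG at positions -105 to -96 and CCATATATGG at -83 to -74 relative to the gene's start. Klf6 held CCTTTAATGG at -201 to -192. Zfp36 held CCATAAAAGG at -32 to -23, in the stretch where a TATA box usually lies, so that the same letters match both descriptions. The Ier2 window held no CArG box and had the full cAMP response element TGACGTCA at -66 to -59, a motif found in 1.83% of all promoters and 3.29% of those of array genes. Zfp36 also held GCGGGGGCG at -79 to -71, which 2.73% of all promoters and 5.39% of those of array genes had. The motifs TGANTCA, found in 7.33% of all promoters and 4.72% of those of array genes, and GCGTGGGCG, found in 0.544% and 1.16%, were in none of the 4 windows. GC content was 64.7% in Egr1, 64.7% in Klf6, 63.7% in Zfp36 and 52.7% in Ier2, beside a median of 51.7% over all promoters. Among 51 other genes of the lists described next, 3 had a CArG box (Dusp5, Hnrnpd and Srf). A match describes letters in a window and does not show that a factor binds there.

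**Figure D3:**
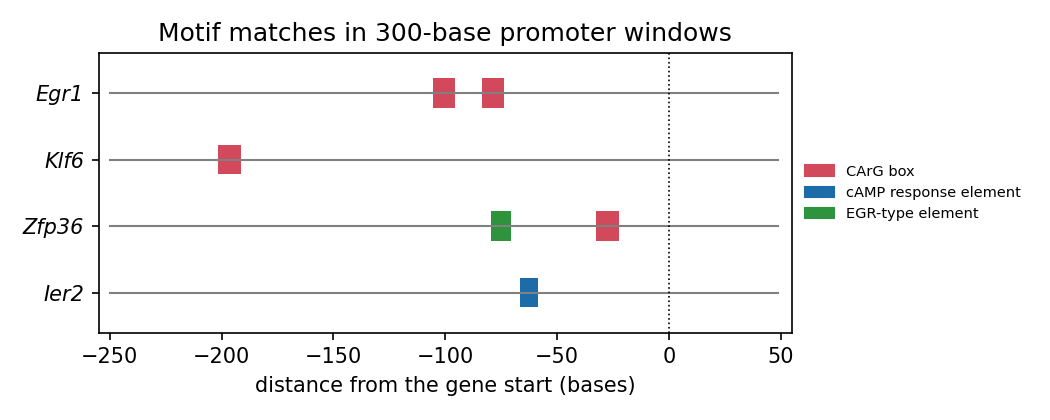
Motif matches in the promoter windows of Egr1, Klf6, Zfp36 and Ier2, drawn to scale against the distance from the gene's start (dotted line) in bases. Boxes mark CArG boxes, the cAMP response element and the EGR-type element. Egr1, Klf6 and Zfp36 have CArG boxes and Ier2 has the cAMP response element.

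Related genes were read from 6 lists of 156 further genes, of which 59 are on the table and 53 were compared between top villus and crypt. Of these 22 were higher and 12 lower in top villus, with a median of 0.46 beside -0.39 for all genes, and the shares over all genes compared, 23.9% higher and 39.5% lower, are the background for each list. The list of other immediate early genes had 11 of 19 higher and 3 lower, with a median of 1.88, and 11 of its 19 values are bounds. The other lists had 5 of 18 higher and 5 lower among upstream kinases and factors, 2 of 4 higher and 1 lower in the AP-1 family, 1 of 3 higher and 1 lower among EGR, KLF and NR4A factors, 1 of 5 higher and 2 lower in mRNA decay, and 2 of 4 higher among Zfp36 targets and inflammatory transcripts. The share of upstream genes higher at the top is near that background. Scaling moved some of these counts and also the shares over all genes. Those shares became 30.2% higher and 34.3% lower with quantile normalization. They were 27.5% and 34.9% with a common median, and 25.3% and 37.1% with a common 75th percentile. Among the 18 upstream genes there were 8 higher and 3 lower with quantile normalization, 7 and 3 with a common median, and 5 and 3 with a common 75th percentile. Quantile normalization also gave 13 higher and 3 lower among other immediate early genes, 2 higher and 2 lower in mRNA decay, and 3 higher among Zfp36 targets and inflammatory transcripts, whose median became 2.44, beside 1.38 as deposited. With a common median no AP-1 gene was lower.

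In the AP-1 family Jund, the third Jun protein, had 10.40 in the crypt, 11.60 in the middle villus and 13.36 at the villus top at the probe that could be read, and its other probe was dim in all 3 parts. Top villus was 7.80-fold higher than crypt. Mafg, a small Maf protein that can pair with AP-1 related factors, had 5.31 in the crypt, 5.24 in the middle villus and 8.52 at the villus top, at least 5.56-fold higher at the top than in crypt. Atf4, a stress response factor, was level at 11.80, 11.61 and 11.78 in the same order of parts, and Atf5 was lower in top villus than in crypt, at -1.21, though within 2-fold at -0.96 after scaling to a common median. Among the zinc finger factors Klf4, a factor of differentiated epithelium, had 9.49 in the crypt, 10.68 in the middle villus and 12.74 at the villus top, a top minus crypt difference of 3.26. Klf5, a factor of dividing crypt cells, was at least 5.04-fold lower in top villus than in crypt. Nr4a1, an orphan nuclear receptor and immediate early gene, was dim in crypt and top villus and had no difference to give.

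Genes around the EGF receptor and the ERK kinases differed in direction. Errfi1, a feedback inhibitor of the EGF receptor, had 6.71 in the crypt, 10.27 in the middle villus and 12.75 at the villus top. Top villus was 65.7-fold higher than crypt, a log2 difference of 6.04, above the value of any of the 6 members. The values of Egr1 and Klf6 are bounds, however, and their differences could be greater. Areg, a ligand of the receptor, had -1.93 in the crypt, 7.43 in the middle villus and 11.27 at the villus top, at least 37.3-fold higher at the top than in crypt. The ERK phosphatase Dusp6 was at least 10.4-fold higher in top villus than in crypt and the related Dusp5 3.88-fold higher. Map2k1, the kinase that activates ERK, had 9.16 in the crypt, 10.54 in the middle villus and 12.46 at the villus top, 9.82-fold higher at the top than in crypt, while Map2k2, its close relative, was within 2-fold at 0.86 and past it at 1.10 after scaling to a common median. Other genes of this route were lower, within 2-fold or dim in crypt. The ERK-activated kinase Rps6ka3 was at least 3.03-fold lower in top villus than in crypt. The adaptor Grb2 was at least 2.02-fold lower as the mean of its 2 probes. Its brighter probe had 11.07 in the crypt and 10.38 at the villus top, and the other was dim at the top. Grb2 was within 2-fold at -0.70 with quantile normalization, -0.77 with a common median and -0.89 with a common 75th percentile. The exchange factor Sos1 was within 2-fold at -0.27. So was the Raf kinase Araf at 0.81, though it was past 2-fold at 1.05 after scaling to a common median. The receptor Erbb2 and Nras were dim in crypt, so their differences of at least 0.28 and 0.41 do not show whether they passed 2-fold. Quantile normalization brought these bounds to 1.32 and 1.45, both past 2-fold. Srf, which binds the CArG box, had 8.41 in the crypt, 8.72 in the middle villus and 9.59 at the villus top, and its difference of 1.18 between top villus and crypt was inside 2 SDs between probes. Atf1, which binds the cAMP response element, was lower in top villus than in crypt, at -2.67.

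Of the remaining immediate early genes Sgk1, a kinase induced by serum and glucocorticoids, had 5.98 in the crypt, 10.18 in the middle villus and 11.34 at the villus top, at least 39.1-fold higher at the top than in crypt. Sik1, a salt-inducible kinase, was like Egr1 dim in crypt and highest at the top, with 4.87 in the crypt, 5.60 in the middle villus and 9.00 at the villus top. It was at least 7.75-fold higher at the top than in crypt. The antiproliferative gene Btg1 was 4.78-fold higher in top villus than in crypt, the NF-kappaB inhibitor Nfkbia 4.33-fold and the survival gene Mcl1 3.85-fold. The growth factor target Myc went with Ier2, at least 8.35-fold lower in top villus than in crypt, with dim values in both villus parts against 8.21 in crypt. Homer1 and Pim3 were also lower, by at least 5.36-fold and at least 4.34-fold. Gadd45a, a DNA damage gene, was within 2-fold at -0.01.

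Few genes whose mRNAs Zfp36 is known to bind, or that belong to the same inflammatory response, were on the table. Il1b had a mean over its 2 probes of 4.47 in the crypt, 6.91 in the middle villus and 8.39 at the villus top, at least 5.07-fold higher at the top than in crypt. The chemokine Ccl20 was at least 4.67-fold higher and the growth factor Csf1 was dim in crypt and middle villus, with 6.58 in top villus. Ccl2, another chemokine, went the other way in the upper villus, with 6.04 in the crypt, where it was dim, 7.35 in the middle villus and 5.37 at the villus top. It was 3.93-fold lower in top than in middle villus. Of the decay machinery Cnot1, the scaffold of the deadenylase complex, was 2.44-fold higher in top villus than in crypt, whereas the deadenylase subunit Cnot7 was at least 3.12-fold lower and the decapping activator Dcp1a 2.90-fold lower.

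**Figure D4:**
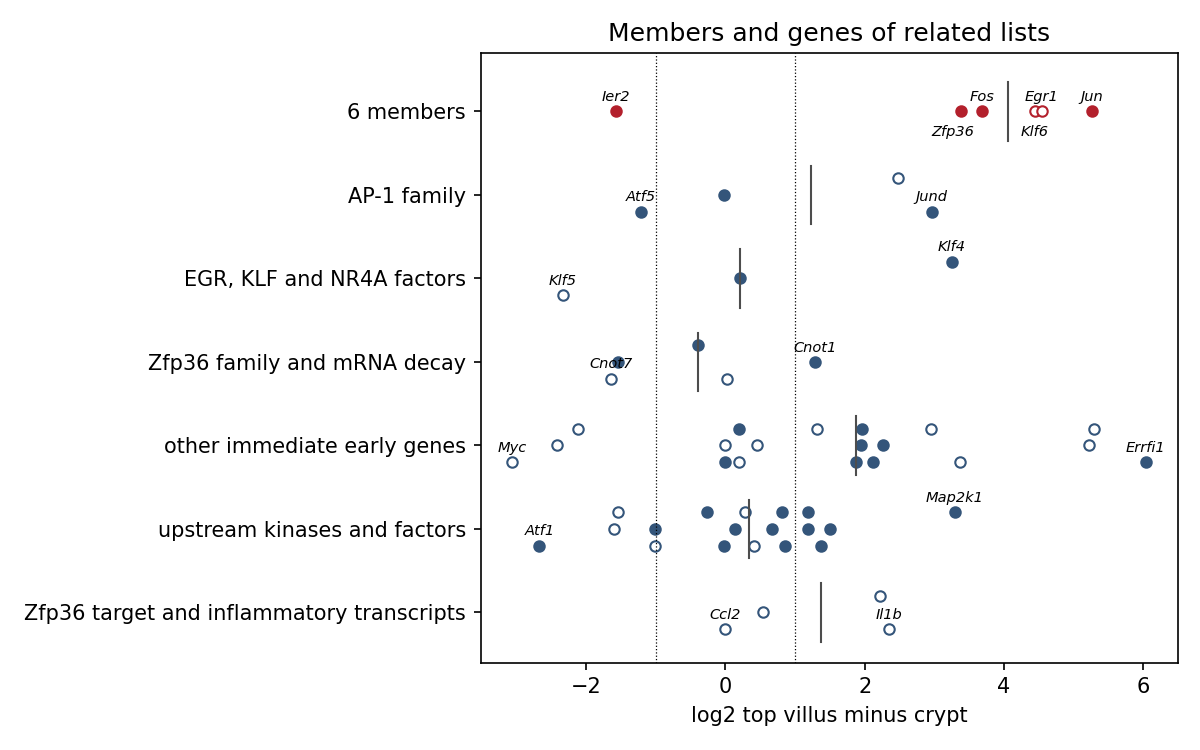
Log2 difference of top villus minus crypt for the 6 members (red) and for the genes of 6 related lists (blue). Each point is a gene, open points are bounds, the short vertical line is the median of a row, and dotted lines mark 2-fold. The members' median is 4.06, and that of other immediate early genes is 1.88.

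Markers of other cells moved along the column as well. Of 5 markers of T cells and NK cells, 4 were higher in top villus than in crypt and Cd3g was lower, at -3.44. Cd3d, at 1.68, went the opposite way to Cd3g. The summed linear values were 2973 in the crypt, 3196 in the middle villus and 4372 at the villus top. Cd3g had the highest crypt value of the 5, at 11.45, so the crypt sum rests mostly on it. Gzmb and Ptprc were dim in crypt. Macrophage, dendritic cell and MHC class II markers were higher in 3 of 4 genes, with sums of 12759, 17588 and 46842 in the same order of parts, and none was dim in any part. The 3 higher genes were the MHC class II markers Cd74, RT1-Ba and RT1-Da, while Lyz2 was within 2-fold at -0.90. Endothelial markers were higher in 2 of 4 genes, with Pecam1 dim in crypt and middle villus, and sums of 1491, 1435 and 2525. Of 5 smooth muscle markers none was past 2-fold, with sums of 4378, 5153 and 5341. Of 3 fibroblast markers compared 1 was lower and none higher, with sums of 2487, 1468 and 1735, and both mast cell markers were lower, with sums of 2894, 2256 and 476. The part of these cells in the values of the 6 genes was not tested.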

How the data were processed

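Per the labels' protocols, RNA from 1 sample per part was amplified linearly and labelled, and both Cy3 and Cy5 are named. The deposited table holds log2 values, a scale read from its highest value of 15.997, just under the 16-bit ceiling. The authors' normalization and channel are not given in the sources used here. All 3 scanner files, whose spots have no names, were not used. The top villus column has 13 empty cells, and probes with an empty cell were left out. Precision is limited by the number of arrays.

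Of 6653 probes 4820 have 1 gene symbol, 0 several and 1833 none. RefSeq (GRCr8) held 4806 of these by Entrez identifier and changed 0 symbols. Dim values were set to the 25% level of their column, bounds were not allowed to pass 0, and probes dim in both parts were not compared. Probes of a gene were averaged where compared. The SD between probes applies to 1 probe and rests on 206 genes (top villus against crypt), 222 genes (middle villus against crypt) and 247 genes (top against middle villus) with several. Named genes are the 6 members, their 3 nearest profiles, and members of the lists and of the marker lists. The members and lists were chosen with earlier results of these data known. The calculation was tested on simulated data. Python 3.11.15, pandas 2.3.3, numpy 2.4.6 and matplotlib 3.10.9 were used. The alternatives were 3 scalings, 5 treatments of dim values, the brightest probe and 2 fold limits.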

Additional observations from a re-analysis of the deposited data

How the results depend on the processing

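No paired analysis was possible because each part has 1 sample, and for the same reason no sample could be left out. Under 11 alternatives no member's difference that had passed 2-fold changed its sign. A limit of 4-fold left 0 members lower in top villus than in crypt, against 22.02% of the genes compared. It left 2 higher in middle villus than in crypt (Fos and Klf6), against 6.12% of genes. It also left 2 higher in top than in middle villus (Jun and Egr1), against 13.77% of genes. Apart from the fold limits, 2 calls changed. Quantile normalization brought Egr1 in middle villus against crypt to 1.24, which is past 2-fold. Counting the lowest 40% of a column as dim brought Ier2 in top against middle villus to 0.43, which is under it, and Ier2 in middle villus against crypt to -1.99, since its middle villus value was then dim. The brightest Klf6 probe alone gave 1.90 at the lower step and 2.84 at the upper one. Top villus against crypt ranged over the alternatives from 4.80 to 5.62 for Jun, 3.68 to 3.92 for Fos, 3.38 to 5.46 for Egr1, 3.86 to 4.76 for Klf6, 3.38 to 3.63 for Zfp36 and -1.57 to -1.32 for Ier2. For middle villus against crypt, quantile normalization gave 935 genes higher and 940 lower, beside 730 and 1127 without it. The median of all genes for top villus against crypt was -0.39, and -0.15 after scaling to a common median. Egr1 in middle villus against crypt has no value with a common level of log2 6 or with 40% dim, since both parts were then dim.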
